A study of Mus musculus with 6 samples.

Results

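The Cep genes encode centrosomal proteins, a set named for where the proteins sit and not for a shared ancestry. They were taken here as every protein-coding gene of the expression table whose symbol is Cep followed by a digit, which gave 39 of the 22255 protein-coding genes and of the 41079 genes listed. The RNA came from D10, a mouse CD4+ helper T cell line grown from a single clone, in 3 cold-acclimated cultures kept for 24 h at 26°C and 3 non-acclimated cultures kept for 24 h at 37°C. The labels name no genetic change and no agent in either group. The replicates of each group were prepared independently, but same-numbered libraries of the 2 groups deviated together from their group means, so the 6 cultures are not 6 independent ones. The comparison asked how the transcript levels of the Cep genes differed between cells acclimated to 26°C and cells held at 37°C. The 6 libraries are described as coming from 1 clone, so the spread between them says nothing about other T cells.

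The centrosome is built from a pair of centrioles, barrels of microtubules, surrounded by pericentriolar material that nucleates microtubules. Centrioles duplicate once per cell cycle, the older centriole carries appendages and can seed a primary cilium, and a protein linker holds the centrosomes together until mitosis. Lymphocytes rarely carry a primary cilium, but a T cell moves its centrosome towards the contact with an antigen-presenting cell. Cep55 stands apart, because its protein acts at the midbody, the bridge cut at the end of cytokinesis.

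Levels were given as TPM, a unit in which reads are divided by gene length and every library is scaled to the same total of transcripts, so that levels of different genes can be set side by side. The reads behind the TPM were recovered from the size of the steps between values. They came to 16899628, 21462512 and 31290817 for non-acclimated replicates 1 to 3, and to 19605883, 20579363 and 25169447 for cold-acclimated replicates 1 to 3. Between 21452 and 45975 of these reads fell on Cep genes in each library.

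The third replicate stood apart from the other two in both groups. On the second principal component of all tested genes, which held 25.2% of the variance, the replicate 3 libraries lay at 48.0 (37°C) and 55.5 (26°C), and the other 4 libraries between -36.3 and -10.9. The defining gene Cd4 was at 310 and 328 TPM in the replicate 3 libraries and at 0.0350 to 1.30 TPM in the others, which goes against the labelled CD4+ cell in replicates 1 and 2. The T cell receptor signalling genes Cd3e (476 to 874 TPM), Cd3g and Lck were high in every library. Replicate 2 stood apart in other genes of that list at both temperatures, with the T cell receptor chain gene Trac at 14.96 and 12.8 TPM against 129 to 207 TPM elsewhere, Cd28 at 7.35 and 5.61 against 27.9 to 54.5 TPM and Cd3d at 64.3 and 78.6 against 240 to 332 TPM, while Trbc1 was at most 0.214 TPM. In limma, 0 of the 11 tested genes of a list of 12 T cell markers was called between the temperatures (median log2 fold change 0.01). Among all tested genes 16.0% were called lower and 2.63% higher. That fit held no replicate term, and its standard errors were 2.64 for Cd4, 1.24 for Trac, 0.89 for Cd28 and 0.71 for Cd3d. The lack of a call therefore does not show that these genes were unchanged. With replicate number as a block 0 of the 11 were called, where 21.9% and 3.75% of all tested genes were. Of 8 B cell markers, Ighm was the most abundant at 0.894 to 3.13 TPM, and Ms4a1 and Blnk were listed at 0 throughout. Of 6 macrophage markers, Lyz2 reached 11.6 and 14.8 TPM in the replicate 3 libraries, with a summed list level of 15.9 and 21.2 TPM there against 2.46 to 3.39 TPM elsewhere, while Csf1r was at most 0.0253 TPM. Of 6 erythroid markers, Hba-a1 ranged from 60.8 to 485 TPM, with Hbb-bs and Hbb-bt listed at 0. The part of these replicate differences in the values of the Cep genes was not tested. For this reason results are also given replicate by replicate and without replicate 3.

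The Cep transcripts as a whole were lower at 26°C in replicates 1 and 2. Their summed level was 900.1, 807.2 and 682.1 TPM in non-acclimated replicates 1 to 3 and 449.2, 429.2 and 677.2 TPM in cold-acclimated replicates 1 to 3. The sum at 26°C was thus 0.499, 0.532 and 0.993 times that at 37°C in replicates 1, 2 and 3. Cep55 alone supplied 17.7, 11.7 and 10.2% of the sum at 37°C and 7.19, 2.64 and 12.2% at 26°C, and without it the ratios were 0.563, 0.586 and 0.970. In such bulk RNA a smaller number of cells that use a gene and less of its RNA per cell cannot be told apart.

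Of the 39 genes, 36 reached a mean of 1 TPM and were tested with the 12227 genes of that level. A gene was called when its adjusted p in limma was under 0.05 and its log2 fold change was 1 or more in size on the log2(TPM + 1) scale, on which all log2 fold changes below are given unless another is named. This scale understates changes, most for genes near 1 TPM. The fit held no term for replicate number unless the block is named. Of the 36, 9 were called lower at 26°C and 0 higher, where 16.0% of all tested genes were called lower and 2.63% higher. At an unadjusted p under 0.05, 21 Cep genes were lower and 2 higher, where 30.0% and 7.75% of all tested genes were. The median log2 fold change of the 36 was -0.90, against -0.34 over all tested genes. The 3 cold-acclimated libraries all lay below the 3 non-acclimated ones for 23 Cep genes and all above for 1, where 31.4% of all tested genes lay below and 9.69% above in this way. The remaining 12 Cep genes overlapped between the temperatures. Cep112, Cep126 and Cep295nl were not tested, having at most 3 recovered reads in any library.

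Other ways of processing gave other counts over the same 36 genes. Limma with the adjusted p alone, at any fold, gave 12 lower and 0 higher, where 17.4% and 3.3% of all tested genes passed. On the log2(TPM + 0.1) scale 12 were called lower and 0 higher (16.0% and 2.58% of all tested genes), which were the 9 and Cep95, Cep170 and Cep295. With replicate number as a block 12 were called lower and 0 higher (21.9% and 3.75% of all tested genes). After median of ratios scaling, which sets the typical gene level, 4 were called lower and 1 higher (8.79% and 6.56%), and limma's voom on the recovered reads gave 4 and 1 (9.57% and 5.86%). Quantile normalization gave 3 and 1 (6.26% and 5.98%). The gene called higher in these 3 fits was Cep43. Cep85, Cep128, Cep72, Cep350 and Cep250 were not called after median of ratios scaling (adjusted p = 0.0822, 0.0622, 0.0759, 0.0723 and 0.0586, limma). Leaving out cold-acclimated replicate 3 gave 16 genes lower (22.3% of all tested genes), and leaving out non-acclimated replicate 3 gave 8 (14.9%). Leaving out replicate 1 or 2 of either group gave 2, Cep57l1 and Cep41, where 4.31% and 2.82% of all tested genes were called lower without non-acclimated replicate 1 or 2 and 3.68% and 4.91% without cold-acclimated replicate 1 or 2.

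The 36 genes covered a wide range of levels, with a mean over the 6 libraries under 5 TPM for 7, from 5 to under 20 TPM for 16 and of 20 TPM or more for 13. Their lengths, as read from the TPM steps, had a median of 6203.5 bases against 3236 over all tested genes. The rank correlation of log2 fold change with length was -0.07 across the 36 and -0.15 across all tested genes, as a description of genes that share libraries.

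**Figure D1:**
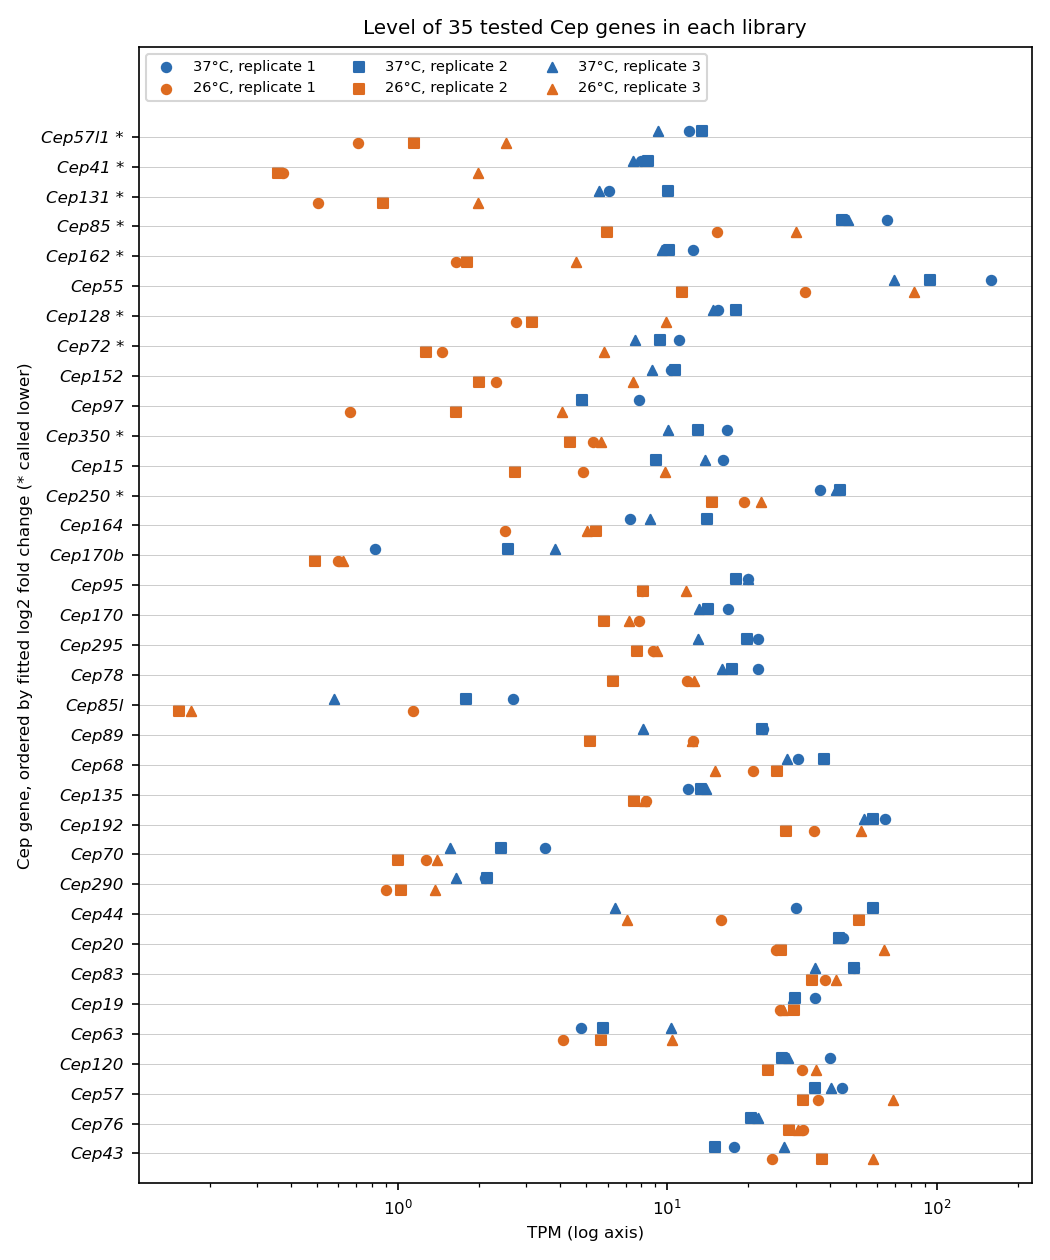
TPM (log axis) of 35 of the 36 tested Cep genes in each of the 6 libraries, with 37°C in blue, 26°C in orange and a marker shape for each replicate number; an asterisk marks the 9 genes called lower. For these 9 genes every orange point lies to the left of every blue point, and in most rows the orange triangle of replicate 3 lies closest to the blue points.

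The genes with the largest log2 fold changes were Cep57l1, Cep41 and Cep131. Cep57l1 is a relative of Cep57 that helps hold centrioles together, and lies on the minus strand at chr10:41594836-41686413 (GRCm39, as are all gene positions here). It was at 12.0, 13.5 and 9.21 TPM in non-acclimated replicates 1 to 3 and at 0.710, 1.14 and 2.52 TPM in cold-acclimated replicates 1 to 3, which is a mean of 11.6 ± 2.16 against 1.46 ± 0.946 TPM (SD, n = 3 each). Its log2 fold change was -2.41 (SE 0.35, adjusted p = 0.00796, limma), and the groups did not overlap. Annotated exons of Sesn1 on the opposite strand cover 6.33% of its exon bases.

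Cep41 takes part in tubulin modification in cilia and lies on the minus strand at chr6:30653456-30710511. It was at 7.98, 8.50 and 7.43 TPM at 37°C and at 0.375, 0.360 and 1.98 TPM at 26°C. Its log2 fold change was -2.34 (SE 0.37, adjusted p = 0.00956, limma). Cep131 is a protein of the centriolar satellites, granules around the centrosome that deliver its components, and lies on the minus strand at chr11:119955247-119977684. It was at 6.09, 10.1 and 5.56 TPM at 37°C and at 0.505, 0.881 and 1.98 TPM at 26°C. Its log2 fold change was -1.98 (SE 0.37, adjusted p = 0.0144, limma). In all 3 genes the cold-acclimated library of replicate 3 was the highest of its group and still below every non-acclimated library. Few reads lie behind the lowest values, with 37, 16 and 27 recovered reads for Cep57l1, Cep41 and Cep131 in cold-acclimated replicate 1.

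Promoters are shown for Cep57l1, Cep41 and Cep131, picked for the size of their fold changes. Beside them are those of Cep55, the member with the highest mean over the 6 libraries, and Cep43, the member with the highest fold change. Whether these genes share a regulator was not tested. Each sequence runs 5′ to 3′ on the gene's strand over 300 bases, from 250 before to 50 after the most upstream annotated start, and comes from RefSeq on GRCm38.p6, an older build than that of the gene positions. Capitals mark matches, on either strand, to 3 short motifs of cell cycle promoters, namely the CHR element (TTTGAA), the CCAAT box (CCAAT) and an E2F site (GCGGGAA), and to the X-box of cilium genes.
Cep57l1, chr10:41809819-41810118, minus strand: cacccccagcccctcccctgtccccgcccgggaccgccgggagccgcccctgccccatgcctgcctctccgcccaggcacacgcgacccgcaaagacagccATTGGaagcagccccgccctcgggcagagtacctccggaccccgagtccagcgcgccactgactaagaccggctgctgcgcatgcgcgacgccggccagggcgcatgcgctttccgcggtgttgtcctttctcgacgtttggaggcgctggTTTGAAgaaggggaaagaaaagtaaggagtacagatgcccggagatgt
Cep41, chr6:30693700-30693999, minus strand: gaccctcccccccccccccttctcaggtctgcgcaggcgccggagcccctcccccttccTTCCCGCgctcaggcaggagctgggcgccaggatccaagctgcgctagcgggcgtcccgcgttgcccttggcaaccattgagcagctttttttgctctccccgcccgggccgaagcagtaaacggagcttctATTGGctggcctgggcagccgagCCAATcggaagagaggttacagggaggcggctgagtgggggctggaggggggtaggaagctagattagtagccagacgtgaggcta
Cep131, chr11:120086778-120087077, minus strand: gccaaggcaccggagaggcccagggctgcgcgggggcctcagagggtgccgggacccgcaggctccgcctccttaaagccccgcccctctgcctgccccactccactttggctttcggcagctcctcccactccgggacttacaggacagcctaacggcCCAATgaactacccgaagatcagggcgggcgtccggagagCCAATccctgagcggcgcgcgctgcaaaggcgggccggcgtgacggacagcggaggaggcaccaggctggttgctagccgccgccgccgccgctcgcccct
Cep55, chr19:38054734-38055033, plus strand: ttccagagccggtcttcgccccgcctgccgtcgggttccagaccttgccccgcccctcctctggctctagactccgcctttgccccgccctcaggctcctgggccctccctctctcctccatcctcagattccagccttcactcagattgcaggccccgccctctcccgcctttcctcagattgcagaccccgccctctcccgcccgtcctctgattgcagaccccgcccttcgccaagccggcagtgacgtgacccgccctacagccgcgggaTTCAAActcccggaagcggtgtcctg
Cep43, chr17:8165268-8165567, plus strand: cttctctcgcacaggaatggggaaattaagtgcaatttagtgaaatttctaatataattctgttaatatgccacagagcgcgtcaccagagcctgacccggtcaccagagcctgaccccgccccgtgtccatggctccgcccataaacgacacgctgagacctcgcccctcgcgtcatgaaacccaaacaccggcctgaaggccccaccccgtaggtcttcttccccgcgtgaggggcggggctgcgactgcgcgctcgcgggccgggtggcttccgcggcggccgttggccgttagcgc

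The Cep57l1 window holds a CHR match that begins at position 2 after the start and a CCAAT match upstream. The Cep41 window holds 2 CCAAT matches and 1 E2F match, that of Cep131 2 CCAAT matches, and that of Cep55 1 CHR match that begins at position 24. The Cep43 window holds no match to these letters. Promoters were matched by gene identifier for 33 of the 39 members. The CHR letters occurred in 8 of the 33 (24.2%) against 16.5% of the 17386 promoters of protein-coding genes, and CCAAT in 16 (48.5%) against 39.1%. The E2F letters occurred in 9 (27.3%) against 6.05%, and the X-box letters in 1, that of Cep19 (3.03%), against 0.414%. The windows of the Cep genes had a median GC content of 62.3% and those of the protein-coding genes 56.3%, and the part of base composition in these shares was not tested. Of the 8 members called lower that have a window, 3 hold the CHR letters, 4 CCAAT, 2 the E2F letters and 0 the X-box letters. Stretches with other spacing between the arms of the X-box, such as gttgcccttggcaac in the Cep41 window, were not searched for. A match describes the letters and does not show that a factor binds there.

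The members of the cilium and its transition zone, the gate at its base, were placed in one group of 7 by general knowledge, as were the other groups here. Of the 6 tested, 3 were called lower, namely Cep41, Cep131 and Cep162, where 16.0% of all tested genes were. The same 3 were called after median of ratios scaling (8.79% of all tested genes). Cep131 was placed here for its part in forming cilia, while Cep72, which also sits at the satellites, was placed with centriole assembly, and without Cep131 the count was 2 of 5. The 26°C libraries lay below all those at 37°C for each of the 6, as for 31.4% of all tested genes. Cep162, which ties the transition zone to the centriole tip, lies at chr9:87071626-87137589 on the minus strand. It was at 12.4, 10.2 and 9.55 TPM at 37°C and at 1.64, 1.81 and 4.60 TPM at 26°C. Its log2 fold change was -1.75 (SE 0.36, adjusted p = 0.0177, limma). The other tested members were not called, with log2 fold changes of -0.62 for Cep70 and -0.50 for the transition zone gene Cep290. Cep290 and Cep70 lay between 0.904 and 3.52 TPM in all libraries. Annotated exons of Rlig1 on the opposite strand cover 18.5% of the exon bases of Cep290, and the strand setting of the counting is not given in the sources used here, so reads of such overlaps cannot be told apart. The seventh member, Cep126, had 1 recovered read in 1 library.

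The largest group held 15 members of centriole assembly, duplication and the scaffold around the centriole. Of 14 tested, 3 were called lower, namely Cep57l1, Cep85 and Cep72, against 16.0% of all tested genes, and 1 after median of ratios scaling, against 8.79%. Of the 14, 1, Cep76, was higher in each cold-acclimated library than in any non-acclimated one without being called, where the cold-acclimated libraries lay all above for 9.69% of all tested genes. Cep85, a regulator of centriole duplication and of centrosome separation at chr4:133857169-133914420 on the minus strand, was at 65.3, 44.6 and 46.9 TPM at 37°C and at 15.3, 5.95 and 29.9 TPM at 26°C. Its log2 fold change was -1.79 (SE 0.51, adjusted p = 0.0454, limma). Cep72, a satellite protein at chr13:74184351-74210439 on the minus strand, was at 11.1, 9.43 and 7.58 TPM at 37°C and at 1.46, 1.27 and 5.79 TPM at 26°C, with a log2 fold change of -1.61 (SE 0.45, adjusted p = 0.0435, limma). In both genes the third cold-acclimated library was nearest to the 37°C values. Cep295, which turns a new centriole into a centrosome, passed the adjusted p (0.0429, limma) with a log2 fold change of -0.97, short of 1 in size. Its means were 18.2 ± 4.58 and 8.58 ± 0.761 TPM (SD, n = 3 each) at 37°C and 26°C, and on the log2(TPM + 0.1) scale it was called, at -1.04 (adjusted p = 0.0421, limma). Annotated exons of Gm16568 on the opposite strand cover 10.7% of its exon bases.

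Of the other members of that group, Cep152, Cep97 and Cep192 differed less in replicate 3 than in replicates 1 and 2. Cep152, the scaffold that recruits the duplication kinase Plk4, was at 10.3, 10.6 and 8.77 TPM at 37°C and at 2.32, 2.00 and 7.49 TPM at 26°C (log2 fold change -1.31, SE 0.42, adjusted p = 0.0640, limma). With replicate number as a block its adjusted p was 0.0373, and it was then called lower. Cep97, a cap protein of the growing centriole end, had a log2 fold change of -1.25 (adjusted p = 0.0824, limma), with differences of -2.42, -1.14 and -0.20 in replicates 1, 2 and 3. Cep192, the scaffold of the pericentriolar material and the second most abundant member by its mean over the 6 libraries, was at 64.1, 57.8 and 53.6 TPM at 37°C and at 35.2, 27.6 and 52.2 TPM at 26°C, with a log2 fold change of -0.64 (SE 0.28, adjusted p = 0.135, limma). Its 26°C libraries lay below all those at 37°C, that of replicate 3 by a small margin. Cep78 and the cartwheel protein Cep135 had log2 fold changes of -0.83 and -0.64, and Cep120, which elongates centrioles, and Cep63, the partner of Cep152, of -0.06 each. Cep44 differed more between replicates than between temperatures, at 30.1, 57.7 and 6.39 TPM at 37°C and 15.8, 51.3 and 7.06 TPM at 26°C.

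Cep76 and Cep57 had the positive log2 fold changes of the group, and neither passed the test. Cep76, which restrains reduplication of centrioles, was at 20.8, 20.4 and 21.7 TPM at 37°C and at 31.8, 28.4 and 30.4 TPM at 26°C. Its log2 fold change was 0.50 (SE 0.21, adjusted p = 0.120, limma), with a difference of 0.59, 0.46 and 0.47 in replicates 1, 2 and 3. Cep57, a protein of the pericentriolar material, ranked behind Cep55 and Cep192 by its mean over the 6 libraries and had a mean of 45.6 TPM at 26°C. It was at 44.7, 35.2 and 40.6 TPM at 37°C and at 36.3, 31.8 and 68.9 TPM at 26°C (log2 fold change 0.10, 95% interval -0.65 to 0.86). The groups overlapped, and only the replicate 3 library was higher at 26°C than its partner.

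Of 11 members of the appendages of the older centriole and their neighbours, 10 were tested and 2 were called lower, near the 16.0% of all tested genes. After median of ratios scaling 0 were called lower and 1 higher, against 8.79% and 6.56%. Cep128, of the subdistal appendages that anchor microtubules, lies at chr12:90965264-91351207 on the minus strand. It was at 15.5, 18.0 and 14.7 TPM at 37°C and at 2.75, 3.16 and 9.87 TPM at 26°C, with a log2 fold change of -1.62 (SE 0.43, adjusted p = 0.0359, limma). Cep350, a large protein that binds Cep43 and Cep19 at the centriole, lies at chr1:155720710-155848976 on the minus strand. It was at 16.6, 13.0 and 10.02 TPM at 37°C and at 5.30, 4.36 and 5.67 TPM at 26°C, with a log2 fold change of -1.20 (SE 0.28, adjusted p = 0.0245, limma). The 26°C levels of Cep350 were close to each other, whereas those of Cep128 were highest in replicate 3.

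The subdistal appendage gene Cep170 passed the adjusted p (0.0324, limma) with a log2 fold change of -0.98, short of 1 in size, at 16.8, 14.1 and 13.1 TPM at 37°C and 7.84, 5.80 and 7.19 TPM at 26°C. On the log2(TPM + 0.1) scale it was called, at -1.07 (adjusted p = 0.0320, limma). Cep164, of the distal appendages that dock a cilium to the membrane, had a log2 fold change of -1.05 (adjusted p = 0.0755, limma) with no overlap between the groups, and was called lower with the replicate block (adjusted p = 0.0207). The distal appendage genes Cep89 and Cep83 were not called, with log2 fold changes of -0.74 and -0.20, and Cep19 had one of -0.18. Cep112 was at 0 except for 1 and 3 recovered reads in the replicate 2 libraries.

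Cep43, once known as Fop, had the highest fold change of all 36. It was at 17.7, 14.996 and 27.0 TPM at 37°C and at 24.4, 37.4 and 58.0 TPM at 26°C. Each cold-acclimated library was above its partner, by 0.45, 1.26 and 1.07 on the log2 scale in replicates 1, 2 and 3, although the groups overlapped because replicate 3 was high at both temperatures. The log2 fold change was 0.93 (SE 0.37, adjusted p = 0.111, limma). With replicate number as a block the adjusted p was 0.0272 at the same log2 fold change, which was short of 1 in size. Under median of ratios scaling, which moved the median of all tested genes from -0.34 to 0.02, Cep43 was called higher (log2 fold change 1.31, adjusted p = 0.0400, limma), and Cep76 had 0.89 (adjusted p = 0.0294).

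Of the 2 linker genes, Cep250 was called lower, where 16.0% of all tested genes were. Its protein, C-Nap1, anchors the linker to the centriole ends. It lies at chr2:155798197-155840820 on the plus strand and was at 36.8, 43.6 and 42.4 TPM at 37°C and at 19.2, 14.7 and 22.2 TPM at 26°C. Its log2 fold change was -1.11 (SE 0.24, adjusted p = 0.0215, limma), with no overlap between the groups. After median of ratios scaling it was not called (-0.72, adjusted p = 0.0586, limma). Annotated exons of 6430550D23Rik on the opposite strand cover 16.3% of its exon bases. Cep68, a second linker protein, was not called (-0.65, adjusted p = 0.126, limma) although its groups did not overlap, and exons of Rab1a on the opposite strand cover 13.1% of its exon bases.

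Cep55, which recruits the abscission machinery to the midbody, was the most abundant member by its mean over the 6 libraries and at 37°C, with a mean of 108 TPM, but at 26°C its mean of 42.1 TPM was below that of Cep57. It lies at chr19:38043423-38062873 on the plus strand and was at 159, 94.3 and 69.3 TPM at 37°C and at 32.3, 11.3 and 82.5 TPM at 26°C. The cold-acclimated libraries lay far apart, and that of replicate 3 was above its partner and above the lowest library at 37°C. The log2 fold change of -1.66 (SE 0.66, adjusted p = 0.110, limma) was accordingly not called. The differences were -2.27, -2.95 and 0.25 in replicates 1, 2 and 3, and without replicate 3 the gene was called (-2.61, adjusted p = 0.0142, limma).

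The last 3 members were placed in no group. Cep95 passed the adjusted p (0.0314, limma) with a log2 fold change of -0.99 and did not overlap between the groups, at 19.9, 18.0 and 19.9 TPM at 37°C and 8.06, 8.14 and 11.7 TPM at 26°C. Annotated exons of Smurf2 and Ddx5 on the opposite strand cover 9.24% and 5.48% of the exon bases of Cep95. Cep15 had a log2 fold change of -1.14 (adjusted p = 0.0949, limma) and was called lower with the replicate block (adjusted p = 0.0258). It was at 16.0, 9.10 and 13.8 TPM at 37°C and at 4.87, 2.72 and 9.84 TPM at 26°C, so that the groups overlapped. Another gene annotated on the same strand shares 8.09% of its exon bases. Cep85l, whose log2 fold change was -0.83 (adjusted p = 0.208, limma), shares 9.50% of its exon bases with a pseudogene on its strand.

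**Figure D2:**
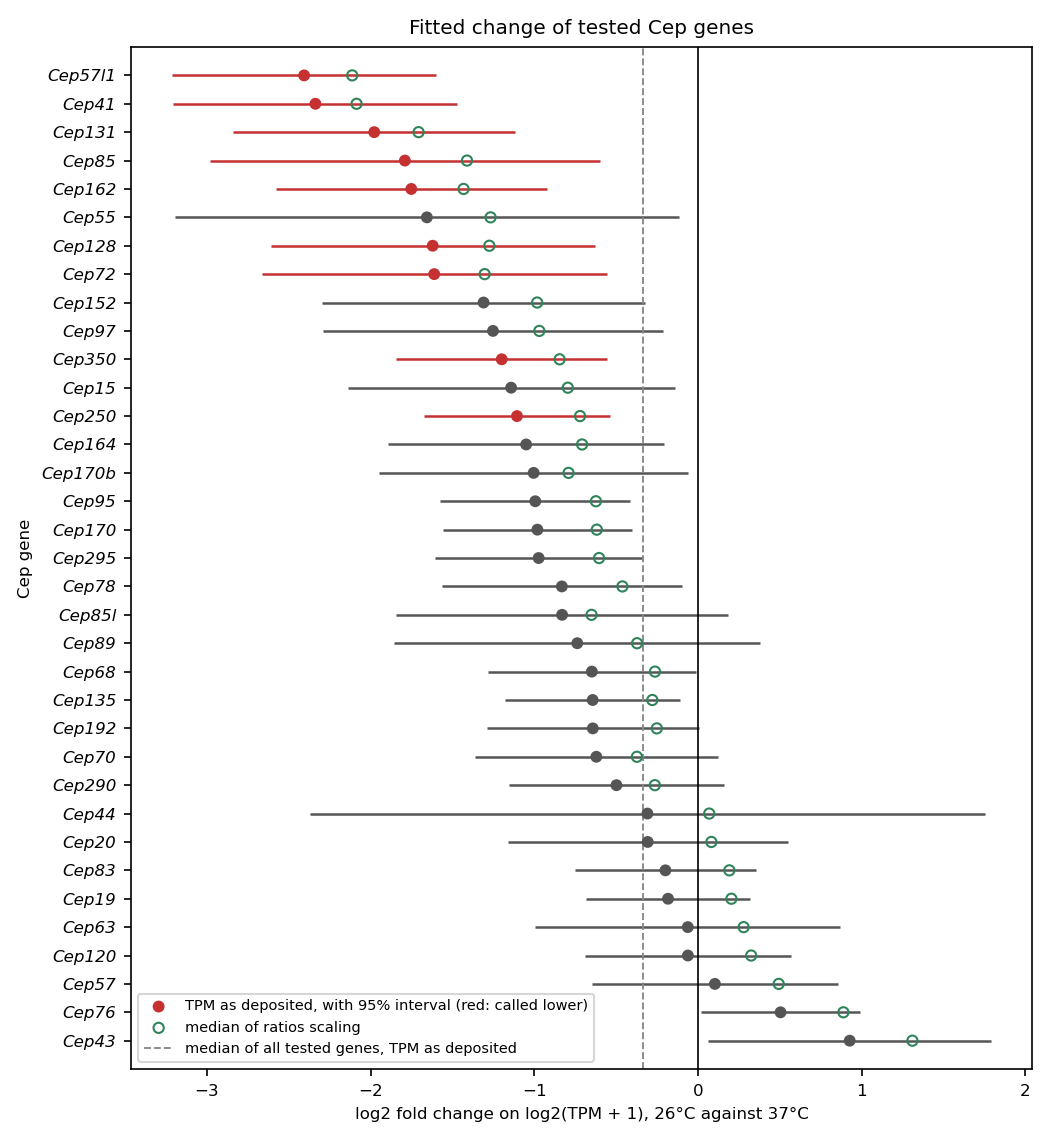
Log2 fold change of 35 of the 36 tested Cep genes on log2(TPM + 1), 26°C against 37°C, with its 95% interval (filled points; red for the 9 genes called lower) and under median of ratios scaling (open circles). The filled points run from -2.41 for Cep57l1 to 0.93 for Cep43, the dashed line marks the median of all tested genes at -0.34, and the open circles sit to the right of the filled points throughout.

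Near relatives differed from each other in their values. The difference in log2(TPM + 1) between Cep57l1 and Cep57 changed from 37°C to 26°C by -2.63, -2.61 and -2.28 in replicates 1, 2 and 3, so that Cep57l1 was lower against Cep57 in each. For Cep43 and Cep20, whose proteins share a similar end, it changed by 1.24, 1.95 and 0.51 towards Cep43, with Cep20 at 44.7, 43.4 and 42.8 TPM at 37°C and 25.3, 26.5 and 63.9 TPM at 26°C. For Cep85l and Cep85 it changed by 1.24, 1.44 and 0.20 towards Cep85l, but Cep85l was at 2.69, 1.79 and 0.577 TPM at 37°C and at 1.14, 0.154 and 0.170 TPM at 26°C, where the log2(TPM + 1) scale compresses differences. For Cep170b and Cep170 the sign differed between replicates, at 0.82, -0.10 and -0.79. Cep170b was at 0.822, 2.56 and 3.82 TPM at 37°C and 0.600, 0.494 and 0.625 TPM at 26°C (log2 fold change -1.003, adjusted p = 0.114, limma). With 3 pairs an exact two-sided test on such differences could not reach a p of 0.05, and none is given.

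The replicates differed in how far the Cep genes were lower. A Cep gene was lower by 1 or more on the log2 scale in 16 of 36 cases in replicate 1, 22 in replicate 2 and 4 in replicate 3, where 26.5%, 30.8% and 15.3% of all tested genes were. The median over the Cep genes lay below the median of all tested genes by -0.57, -0.75 and -0.09 in replicates 1, 2 and 3. Of the 36, 26 were lower at 26°C in all 3 replicates, 8 were lower in replicates 1 and 2 and higher in replicate 3, and 2, Cep43 and Cep76, were higher in all. Taken singly, replicates 1, 2 and 3 had 34, 34 and 26 of the 36 lower, and 7838, 8266 and 7850 of the 12227 tested genes. Replicate 3 had the most positive or least negative difference of the 3 in 30 of the 36. The median of all tested genes was also least negative there, at -0.32, -0.44 and -0.24 in replicates 1, 2 and 3. Those lower by 1 or more in replicate 3 were Cep170b, Cep57l1, Cep41 and Cep131. Without replicate 3 at either temperature 17 Cep genes were called lower and 0 higher, where 25.3% and 5.34% of all tested genes were, and the 9 named above were among them. Without replicate 1 or without replicate 2, 0 Cep genes and 0.0% of all tested genes were called by limma in either direction. At an unadjusted p under 0.05, 8 Cep genes were lower and 1 higher without replicate 1 (16.4% and 3.27% of all tested genes), and 8 and 0 without replicate 2 (15.1% and 3.11%).

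**Figure D3:**
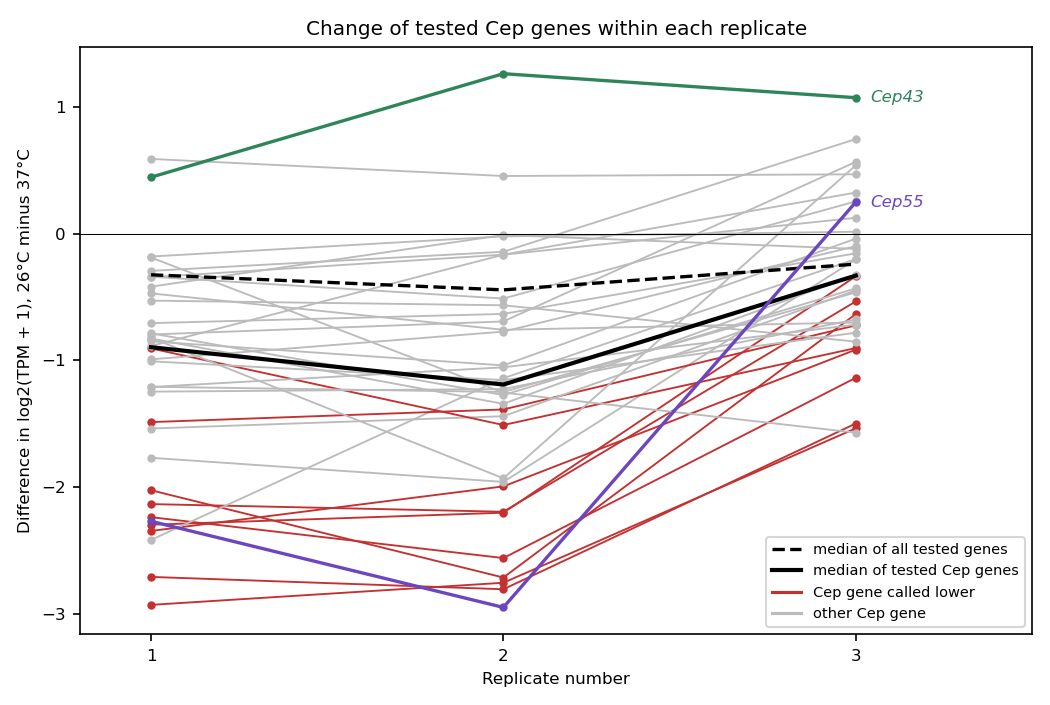
Difference in log2(TPM + 1), 26°C minus 37°C, of 35 of the 36 tested Cep genes within replicates 1, 2 and 3 (red, genes called lower; grey, other Cep genes; Cep43 green and Cep55 purple), with the median of all 36 (solid black) and of all tested genes (dashed). Lines join the values of a gene and do not stand for an order; the 2 medians lie apart in replicates 1 and 2 and nearly meet in replicate 3, where Cep55 is above 0.

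Lists of other genes of the centrosome and of cell division, none of which holds a Cep gene, were examined in the same way, against the same 16.0% lower and 2.63% higher among all tested genes. Of 23 tested genes of centriole assembly, 10 were called lower and 0 higher, with a median log2 fold change of -1.44. The smallest p values were those of Tubd1, encoding delta-tubulin (-2.65, SE 0.36, adjusted p = 0.00744), and Spice1, a duplication factor (-2.52, SE 0.34, adjusted p = 0.00746). Of 22 genes of the pericentriolar material, 6 were called lower and 1 higher (median -1.01), Nedd1, which targets the gamma-tubulin ring complex, being lower (-1.99) and the augmin subunit Haus2 higher (1.22, at 19.8, 21.0 and 17.1 TPM at 37°C and 48.0, 45.0 and 45.7 TPM at 26°C). With replicate number as a block 11 of these 22 were called lower, against 21.9% of all tested genes, and after median of ratios scaling 2 were called lower and 2 higher, against 8.79% and 6.56%. Of 13 genes of appendages and linker, 3 were called lower and 0 higher (median -0.92), led by Ankrd26 (-2.27) and Fbf1 (-1.61), both of the distal appendages. Of 11 satellite genes, 4 were called lower and 0 higher (median -0.84), including Ssx2ip (-1.43) and Wrap73 (-1.39).

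Of 14 regulators of the mitotic centrosome and spindle, 4 were called lower and 2 higher (median -1.44). Nek6, a mitotic kinase, was higher (1.99, SE 0.34) at 38.5, 37.1 and 67.5 TPM at 37°C and 234, 212 and 127 TPM at 26°C, and Numa1, which organises spindle poles, was lower (-2.34, SE 0.42). Of 14 midbody partners of Cep55, 3 were called lower and 0 higher (median -0.92), among them the kinesin Kif14 (-2.60) and the citron kinase gene Cit (-2.18). Of 28 tested genes of the primary cilium, out of 38 listed, 12 were called lower and 0 higher (median -0.98), led by Ift80, an intraflagellar transport subunit (-2.89, SE 0.44), and Arl13b, a small GTPase of the ciliary membrane (-2.03, SE 0.33). After median of ratios scaling the counts lower were 8 of 23 for centriole assembly, 3 of 13 for appendages and linker, 4 of 11 for satellites, 2 of 14 for the mitotic regulators, 2 of 14 for the midbody partners and 6 of 28 for the cilium, against 8.79% of all tested genes. There was 1 satellite gene and 2 mitotic regulators higher, against 6.56%, and 0 in the other 4 lists of that sentence. With replicate number as a block, 15 genes of centriole assembly, 4 of appendages and linker and 4 satellite genes were called lower, against 21.9% of all tested genes. The blocked counts lower were 6 for the mitotic regulators, 4 for the midbody partners and 13 for the cilium. With the block, 2 mitotic regulators and 1 gene of the pericentriolar material, Haus2, were called higher, against 3.75% of all tested genes. In the other lists of this paragraph and the one before, 0 were. Without replicate 3 the counts lower were 18 for centriole assembly, 13 for pericentriolar material, 7 for appendages and linker, 4 for satellites, 9 for the mitotic regulators, 9 for the midbody partners and 17 for the cilium, against 25.3% of all tested genes. Within replicate 3 the medians of the pericentriolar, mitotic and midbody lists lay above that of all tested genes, by 0.0302, 0.23 and 0.22. The values of these genes describe transcripts and do not show that D10 cells carry cilia.

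Markers of proliferation were also far lower at 26°C in replicates 1 and 2 and near level in replicate 3. Their 20 genes summed to 4133, 4548 and 4981 TPM at 37°C and to 1332, 797.9 and 4486 TPM at 26°C, Top2a being at 531, 441 and 483 TPM at 37°C and 54.6, 33.4 and 278 TPM at 26°C. They were lower by 1 or more on the log2 scale in 18, 20 and 0 of the 20 in replicates 1, 2 and 3. Of the 20, 3 were called lower and 0 higher (median -1.45), among them Aurkb (-2.14) and Bub1 (-2.30), a share near the 16.0% of all tested genes. At an unadjusted p under 0.05 (limma), 11 were lower and 0 higher, where 30.0% and 7.75% of all tested genes were. The log2 fold change was negative for all 20, and for 8137 of the 12227 tested genes. The count called lower was 9 with the replicate block (21.9% of all tested genes), 19 without replicate 3 (25.3%) and 2 after median of ratios scaling (8.79%). The part of this difference in the values of the Cep genes was not tested.

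**Figure D4:**
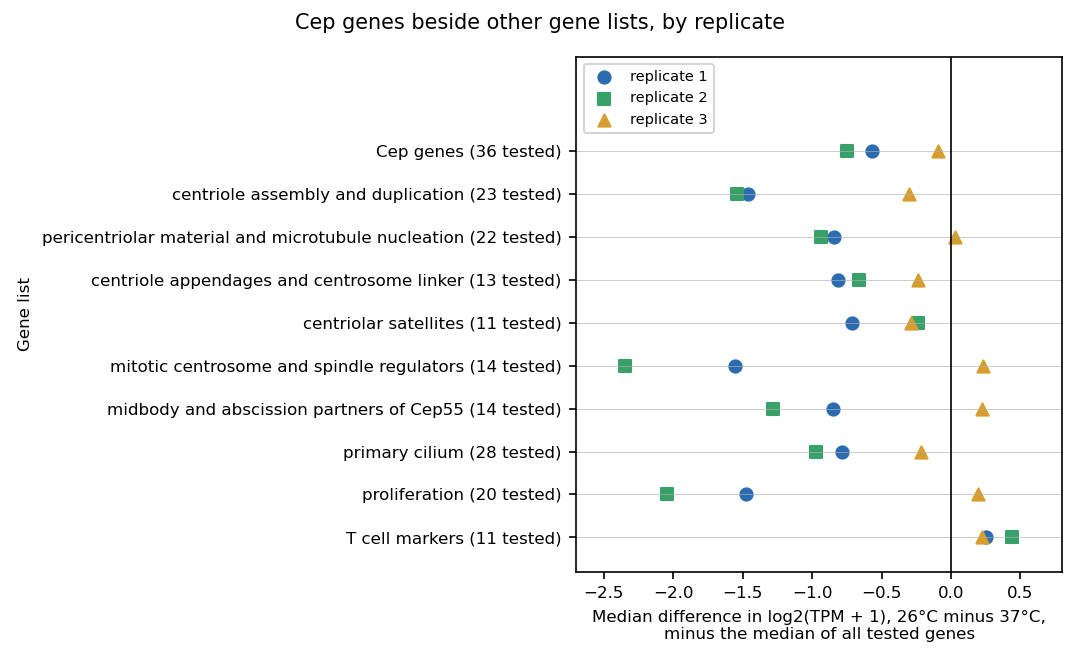
Median difference in log2(TPM + 1), 26°C minus 37°C, of each gene list minus the median of all tested genes, for replicates 1 (circles), 2 (squares) and 3 (triangles). The Cep genes lie at -0.57, -0.75 and -0.09, and the proliferation list at -1.48, -2.05 and 0.19; T cell markers lie above 0 in each replicate.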

How the data were processed

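The authors selected poly(A)+ RNA from 6 D10 cultures, made strand-specific libraries and sequenced paired ends. Per the submitters' processing notes, reads were checked with FastQC 0.11.7, trimmed with Trimmomatic 0.38, aligned with HISAT2 2.1.0 and counted with featureCounts 1.6.3, on GRCm39. The values analysed are TPM as deposited by the authors. The sources used here do not give the annotation release, the strand setting or how counts became TPM. The labels name older and newer RNA extractions without assigning libraries to them.

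Whole reads were recovered from the TPM steps for 100% of the 21195 genes above 0, within 1e-06 of a whole number. They are the smallest whole numbers that fit, so a gene's true reads may be a multiple. Differential expression was tested with limma 3.58.1 (R 4.3.3, mean-variance trend) on log2(TPM + 1) for 12227 genes, those whose TPM averaged 1 or more. The p-values were adjusted over all of these by the Benjamini-Hochberg method. The members and lists were chosen with earlier results of these data known. Named genes were all members but that noted below, with values in every library for the called members, the 3 with the highest mean TPM, the 2 with the highest fold change and 4 pairs of relatives, and the 2 genes of each list with the smallest p. Values of other members and list genes were added after they were seen. For 1 tested member, counted throughout, and 1 marker no single value is reported here. Of the list entries, Cenpj was not matched. Alternatives covered pseudocount, filter, scaling, voom, the replicate block and libraries left out. Same-numbered libraries deviated together (correlations of 0.48, 0.50 and 0.51, against -0.41 to 0.02 for other pairs), so the numbers pair the libraries. The main fit held no replicate term, so its calls, standard errors, intervals and adjusted p leave this pairing out. The fits with the replicate block take it in. Group sizes of 3 and 3 give a permutation p of 0.1 at best, so single-gene permutation tests were not used. Exon overlaps were taken from GENCODE on GRCm39. Tables and plots used Python 3.11.15, numpy 2.4.6, pandas 2.3.3, scipy 1.17.1 and matplotlib 3.10.9.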

Additional observations from a re-analysis of the deposited data

How the results depend on the processing

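The fold changes are relative to the TPM total of each library, and a change in RNA per cell was not measured. The number of calls moved with scaling, the pseudocount, the filter on low values, the replicate block and the libraries included. Median of ratios scaling gave 4 Cep genes lower and 1 higher (all genes 1075 lower and 802 higher), quantile normalization 3 and 1 (765 and 731), and voom on recovered reads 4 and 1 (1170 and 717). The 4 under median of ratios scaling and under voom were Cep57l1, Cep41, Cep131 and Cep162. A pseudocount of 0.1 gave 12 Cep genes lower, adding Cep95, Cep170 and Cep295 to the 9 (1953 lower and 315 higher among all genes), and a mean TPM of at least 5 gave 6 (1518 and 227). Without a filter on low values 4 Cep genes were lower (1121 lower and 184 higher among all genes). The replicate block gave 12 Cep genes lower, adding Cep152, Cep15 and Cep164 to the 9 (2679 lower and 458 higher among all genes). The block together with median of ratios scaling gave 6 and 1 (1544 and 1086), and with voom, an alternative added after the data were seen, 9 and 1 (1912 and 1078). The median of the Cep genes stayed below that of all tested genes by 0.42 or more under those alternatives in which no library was left out, for which it was computed.

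Leaving out 1 library gave 2 to 16 Cep genes lower, with 345 to 2725 lower and 59 to 459 higher among all genes. Cep57l1 and Cep41 were called in all 6 such fits, with adjusted p up to 0.0461 and 0.0499. Cep131, Cep162, Cep350 and Cep250 lost the call without replicate 1 or 2 of either group. Cep85, Cep128 and Cep72 kept it only without cold-acclimated replicate 3. Without a whole replicate 0, 0 and 17 Cep genes were lower for replicates 1, 2 and 3 (0, 0 and 3088 lower and 0, 0 and 653 higher among all genes). Leaving out replicate 1 or 2 keeps replicate 3 and 1 other in each group.

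The members named next, which changed sign, were not called under any setting given here. Under median of ratios scaling, with or without the block, the log2 fold changes were 0.0692 for Cep44, 0.0823 for Cep20, 0.19 for Cep83, 0.20 for Cep19, 0.28 for Cep63 and 0.33 for Cep120. Under voom they were 0.0651, 0.0825, 0.18, 0.19, 0.28 and 0.33 in the same order, and under quantile normalization 0.13, 0.0198, 0.11, 0.21, 0.59 and 0.32, with 0.0151 for Cep290. Leaving out libraries gave -1.15 to 0.34 for Cep44, -0.38 to 0.22 for Cep63, -0.25 to 0.12 for Cep120 and -0.23 to 0.32 for Cep57.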
